A study of Mus musculus with 7 samples.

Results

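Cytosolic ribosomal protein genes encode the proteins that, with ribosomal RNA, build the small (40S) and large (60S) subunits of the ribosome outside mitochondria. They were taken as every row of the gene table named Rps or Rpl plus a number, with an optional letter and digit, together with Rpsa, Rplp0, Rplp1 and Rplp2, leaving out names with -ps, at a mean of at least 1 RPKM over the 7 libraries. RPKM counts reads relative to gene length and to the mapped reads of the library, so levels can be compared between genes. Of 22987 rows, 85 matched the names and 81 reached that level: 31 proteins of the 40S subunit, 43 of the 60S subunit, the 3 proteins of the 60S stalk and 4 paralogs (Rps27l, Rpl22l1, Rpl7l1 and Rps4l). The 4 that fell short were Rpl32l at a mean of 0.133 RPKM, Rpl39l at 0.0198, Rpl3l at 0.0123 and Rpl10l, listed at 0 in every library. The lowest gene inside the limit was Rpl30 at 7.86 RPKM, so the limit cut through an empty range.

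The study sequenced RNA scraped from the opened duodenum of C57BL/6 mice aged 6 weeks: 4 libraries from Nlrc4-T337S animals, which carry an amino acid change in the inflammasome sensor Nlrc4, and 3 from wild-type (WT) animals. In humans the same change is a known activating mutation that causes an autoinflammatory disease. The labels do not give zygosity, sex, litter or collection day, or whether any animal gave more than 1 library, so the p-values reflect only how much these libraries vary. A gene-level table cannot show a point change in Nlrc4.

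Ribosomal proteins are made in nearly equal amounts, and their transcripts are among the most abundant of any cell. Most of these transcripts begin with a C followed by a run of pyrimidines, the terminal oligopyrimidine (TOP) sequence, through which mTOR signalling and the protein Larp1 set their translation and stability. In the small intestine, ribosome production is known to be highest in the dividing cells of the crypt and to drop as cells mature on the villus. Ribosomal protein genes have left many processed pseudogenes in mammalian genomes, which makes short reads from them hard to place.

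Start-site sequences from RefSeq (GRCm38.p6, whereas the gene table was made on mm9) were matched by symbol to 60 of the 81 genes. Each window printed here is 30 bases on the transcript strand, 15 before the annotated start and 15 from it onward. Capitals mark the longest unbroken run of C and T. The windows show the pyrimidine runs at the annotated starts of 8 genes that span both subunits and the stalk, picked for runs of 10 to 21 bases. The annotated start lies inside the run in each of these 8, and is a C in all of them except Rpl7a, where it is a T. Other genes with runs of such length are not shown. In some of those the start lies inside the run, as in Rpl27a. In others, such as Rpl13a, Rpl18 and Rpl4, it is a G outside the run. The 8 windows therefore do not stand for all genes with long runs.
Rps6 (chr4:86857353-86857382, minus strand): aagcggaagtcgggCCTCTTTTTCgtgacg
Rps10 (chr17:27635230-27635259, minus strand): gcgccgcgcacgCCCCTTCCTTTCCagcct
Rpl7a (chr2:26910792-26910821, plus strand): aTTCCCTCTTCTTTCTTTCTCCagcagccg
Rpl15 (chr14:18270972-18271001, minus strand): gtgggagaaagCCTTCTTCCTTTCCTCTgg
Rpl28 (chr7:4792950-4792979, plus strand): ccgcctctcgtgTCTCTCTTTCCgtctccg
Rpl35 (chr2:39005117-39005146, minus strand): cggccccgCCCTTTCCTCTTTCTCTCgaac
Rpl38 (chr11:114668565-114668594, plus strand): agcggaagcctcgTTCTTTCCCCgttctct
Rplp2 (chr7:141447636-141447665, plus strand): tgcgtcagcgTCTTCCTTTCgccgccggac
The windows of 3 paralogs are shown beside them, with runs of 9 bases in Rps27l (the upstream of its 2 RefSeq starts), 10 in Rpl22l1 and 2 in Rpl7l1.
Rps27l (chr9:66946071-66946100, plus strand): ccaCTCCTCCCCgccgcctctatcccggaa
Rpl22l1 (chr3:28805493-28805522, plus strand): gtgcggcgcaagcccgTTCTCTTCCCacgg
Rpl7l1 (chr17:46782642-46782671, minus strand): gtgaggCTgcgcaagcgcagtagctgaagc
A pyrimidine hexamer (the letters CTTTCC or, as its variants, the letters CTTTTC or else the letters CTCTTT or else the letters CTTCCT, which can overlap one another) lay on the transcript strand within 25 bases of the start in 24 of 57 genes other than the paralogs (42.1%) and in 0 of 3 paralogs. Among 8415 other tested genes 10.8% held one, and 10.5% of all 27025 genes with a promoter entry did. On the opposite strand the shares were 12.3% of the 57, 9.01% of the other tested genes and 9.88% of all genes. CGGAAG, the core recognised by ETS-family factors, lay on either strand from 250 bases before the start to 50 after it in 70.2% of the 57, in 35.9% of the other tested genes and in 18.8% of all genes. These matches describe letters in a window and were not tested as sites.

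Depth ran from 45032119 to 95732587 reads that passed quality filters, 84.2% to 97.1% of them mapped. So 1 read per kilobase was worth 0.0124 to 0.0251 RPKM, far below every level given here for the 81 genes. The shallowest was Nlrc4-T337S replicate 2. The labelled tissue was checked by enterocyte markers, which were abundant in every library: Vil1, a brush border protein, had 870, 843, 668 and 815 RPKM in Nlrc4-T337S replicates 1 to 4 and 887, 806 and 747 RPKM in WT replicates 1 to 3. Of 5 markers of the proximal duodenum, Cybrd1, S100g and Pdx1 split the libraries across genotypes, while Gata4 (13.0 to 18.6 RPKM in Nlrc4-T337S and 16.4 to 19.1 RPKM in WT) and Ccl25 (292 to 397 RPKM in Nlrc4-T337S and 292 to 388 RPKM in WT) did not. Cybrd1, an intestinal iron reductase, had 0.118, 0.0676, 10.4 and 14.04 RPKM in Nlrc4-T337S and 0.184, 0.145 and 13.6 RPKM in WT. S100g, a duodenal calcium-binding protein, had 12.6, 11.2, 2395 and 1346 RPKM in Nlrc4-T337S and 19.2, 19.8 and 2376 RPKM in WT. Pdx1, a duodenal transcription factor, had 1.66, 0.430, 10.9 and 12.02 RPKM in Nlrc4-T337S and 2.44, 3.53 and 16.6 RPKM in WT. These 3 were low in replicates 1 and 2 of each genotype, which are the 4 samples the submitters list first, and high in the other 3 libraries. Nlrc4-T337S replicate 2 stood apart from the other 3 libraries of its genotype in the genes described here, as the values show, and the part of its lower depth in that was not tested.

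Summed over the 81 genes, ribosomal protein RPKM was low in 3 of the 4 Nlrc4-T337S libraries and at wild-type level in the remaining library. The sum was 7388, 14692, 7717 and 8794 RPKM in Nlrc4-T337S replicates 1 to 4, against 14837, 12455 and 14151 RPKM in WT replicates 1 to 3. Nlrc4-T337S replicate 2 lay between the highest and lowest WT libraries, so the groups overlapped, and the highest library held 2.01 times the lowest. The means were 9648 ± 3416 RPKM in Nlrc4-T337S (SD, n = 4) and 13814 ± 1226 RPKM in WT (SD, n = 3), so the Nlrc4-T337S mean was 69.8% of the WT mean. As a share of the summed RPKM of all rows, the 81 genes made up 1.86, 3.47, 2.095 and 2.25% in Nlrc4-T337S, against 3.45, 3.24 and 3.40% in WT. The order of the libraries changed little on that scale, with Nlrc4-T337S replicate 2 now the highest. In bulk tissue, fewer cells of a type and less RNA per cell cannot be told apart.

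**Figure D1:**
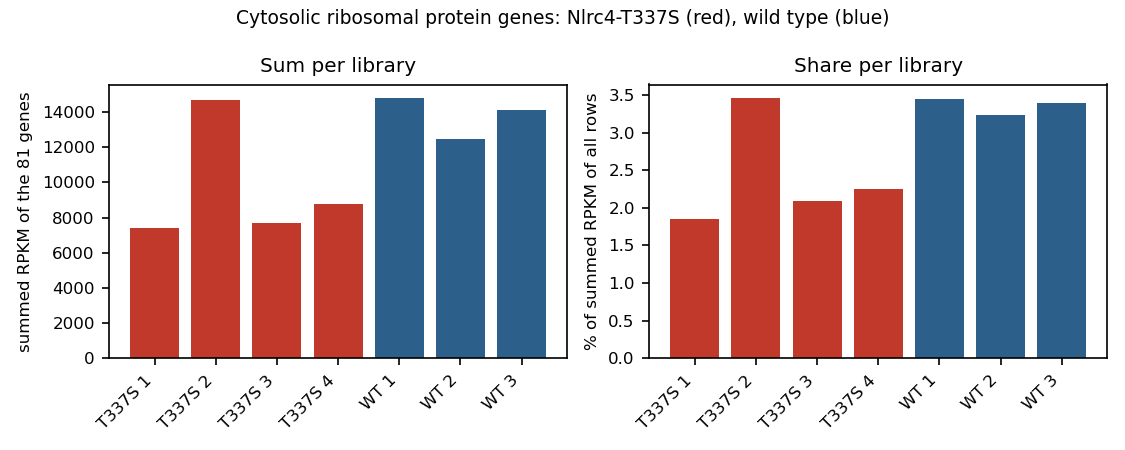
Summed RPKM of the 81 cytosolic ribosomal protein genes (left) and their percent of the summed RPKM of all rows (right), 1 bar per library, Nlrc4-T337S in red and wild type in blue. Nlrc4-T337S replicate 2, at 14692 RPKM, stands level with the WT libraries, while the other 3 Nlrc4-T337S bars reach 7388 to 8794 RPKM.

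The same sums can be read within each part of the sample order. In the libraries with low Cybrd1 and S100g the sums were 7388 and 14692 RPKM in Nlrc4-T337S, against 14837 and 12455 RPKM in WT. In those with high Cybrd1 and S100g they were 7717 and 8794 RPKM in Nlrc4-T337S, against 14151 RPKM in the single WT library. With a term for sample order in the fit, the median difference of the 81 genes was -0.55 on the log2(RPKM + 0.5) scale, against -0.58 without it.

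The 81 genes moved together from library to library. Each gene's log2 value was set against its own mean over the 7 libraries. Over the 81 genes, Nlrc4-T337S replicates 1 to 4 had median deviations of -0.57, 0.42, -0.50 and -0.31, against 0.43, 0.20 and 0.35 in the WT libraries. Nlrc4-T337S replicate 3 had all 81 genes below their own means, replicate 1 had 80 and replicate 4 had 79, whereas replicate 2 had 1 and the WT libraries had 0, 4 and 3. The median SD of a gene over the libraries was 0.46 on the log2 scale and came down to 0.09 once the library's median was subtracted. Over the 3240 pairs of genes the median Pearson correlation was 0.981, and 72 of the 81 genes correlated above 0.95 with the median of the others. The lowest such correlations were those of Rps27l (0.443), Rps4l (0.618), Rpl30 (0.750), Rpl22l1 (0.788) and Rplp2 (0.820). All of these rest on the same 7 libraries, whose scaling every gene shares, and near-identical copies share reads, so they are given as a description.

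**Figure D2:**
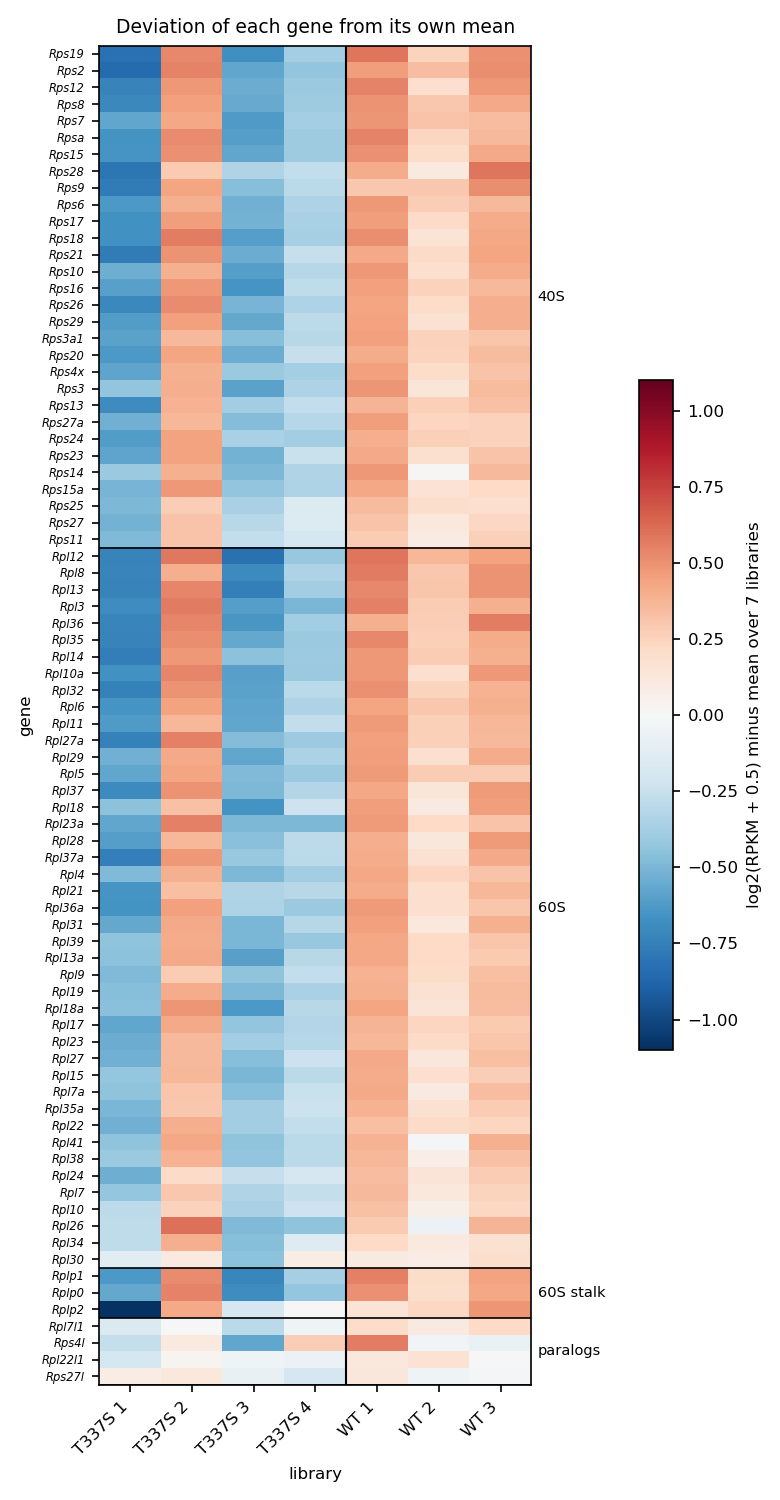
Deviation of log2(RPKM + 0.5) from each gene's own mean over 7 libraries, 1 row for each of 80 of the 81 genes, grouped by subunit and ordered by the genotype difference, 1 column per library with Nlrc4-T337S left of wild type. Nlrc4-T337S replicates 1, 3 and 4 are blue (low) in nearly every row and replicate 2 is red (high) like the WT columns, while the 4 paralogs at the bottom are paler.

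Tested by limma together with all 10987 genes, 0 of the 81 genes were called lower and 0 higher in Nlrc4-T337S at an adjusted p of 0.05. Over all tested genes 0.592% were called lower and 0.3% higher. At an unadjusted p under 0.05 there were 65 of the 81, all lower, against 20.4% of all tested genes that were lower at that level. All 81 log2 differences, Nlrc4-T337S minus WT, were negative, as were 78% of those of all genes. Their median was -0.58, against -0.15 for all genes, a gap of -0.43, and they ran from -0.81 (Rpl12) to -0.03 (Rps27l). The adjusted p-values of limma ran from 0.147 to 0.871.

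That outcome turned on a single library. Nlrc4-T337S replicate 2 was at or above the lowest WT library in 80 of the 81 genes and above the highest in 31. The other 3 Nlrc4-T337S libraries lay below replicate 2 and below every WT library in 79 of the 81 genes, all but Rps27l and Rps4l, a pattern that 24.7% of all tested genes showed. Without replicate 2, limma called 75 of the 81 genes lower and 0 higher, where 11.6% of all tested genes were called lower and 0.674% higher, and the median log2 difference of the 81 was -0.78. By subunit that was 31 of 31 of the 40S, 42 of 43 of the 60S, 2 of 3 of the stalk and 0 of 4 paralogs. The 6 genes not called without it were Rpl30, Rplp2 and the 4 paralogs. Replicate 2 stands apart in these same genes, so this count describes the other 6 libraries. Without Nlrc4-T337S replicates 1 and 3, the pair lowest in crypt and stroma markers, 0 genes were called, the median was -0.28 and 80 of the 81 differences were negative. In that fit 0.0091% of all tested genes were called in each direction. With libraries weighted by how far they depart from their group (limma array weights), 0 of the 81 were called and 48 had an adjusted p under 0.10, where 2.61% of all tested genes were called lower, 0.555% higher, and 11.2% were lower at 0.10.

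**Figure D3:**
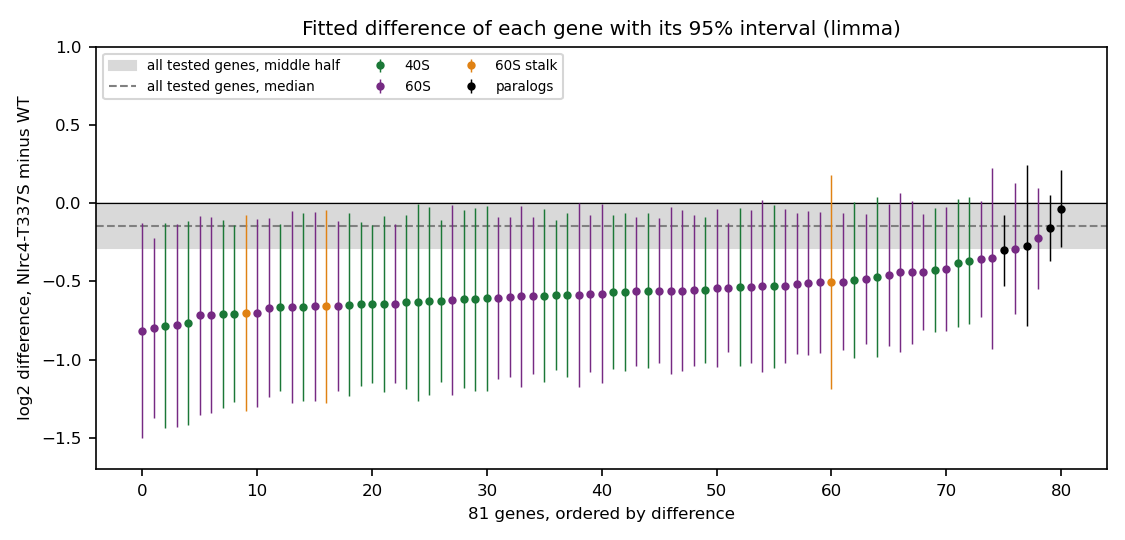
Fitted log2 difference (Nlrc4-T337S minus wild type, on the log2(RPKM + 0.5) scale) of the 81 genes with 95% limma intervals, ordered and coloured by subunit, beside the median (dashed) and interquartile range (grey) of all tested genes. The points run from -0.81 to -0.03 and all lie below 0, and the paralogs are among those nearest 0.

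Proteins of the 40S subunit read the messenger RNA. The 31 genes of this subunit had a median log2 difference of -0.61, with 0 called and 27 at an unadjusted p under 0.05. Of all tested genes 22.2% were under 0.05 in either direction. Their sum was 2904, 6068, 3134 and 3586 RPKM in Nlrc4-T337S, against 6129, 5151 and 5832 RPKM in WT. Rps14, a protein of the 40S platform whose human gene is lost in a form of myelodysplastic syndrome, was the most abundant of them, with 193, 336.7, 182 and 204 RPKM in Nlrc4-T337S and 357, 259 and 329 RPKM in WT. Rps12 had 143, 331, 163 and 179.6 RPKM in Nlrc4-T337S and 348, 271 and 332 RPKM in WT, and Rps29, a small zinc-binding protein, had 157, 330.5, 163 and 198 RPKM in Nlrc4-T337S and 328, 271 and 318 RPKM in WT. In all 3 genes Nlrc4-T337S replicates 1, 3 and 4 lay below every WT library and replicate 2 lay within or above the WT range.

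The most negative differences of the 40S genes were those of Rps19 and Rps2. Rps19, the gene most often mutated in human Diamond-Blackfan anaemia, had 53.03, 136, 58.9 and 72.3 RPKM in Nlrc4-T337S and 142, 112 and 133 RPKM in WT (log2 difference -0.78, SE 0.29, limma adjusted p = 0.176). Rps2, which lines the entry of the mRNA channel, had 92.8, 245, 112 and 124 RPKM in Nlrc4-T337S and 232, 213 and 239 RPKM in WT (log2 difference -0.77, SE 0.29, limma adjusted p = 0.178). In both, Nlrc4-T337S replicate 1 was the lowest library, while replicate 2 lay within the WT range for Rps19 and just above it for Rps2. Rps6, the substrate of S6 kinase and so a standard readout of mTOR activity, had 69.7, 141, 74.9 and 85.3 RPKM in Nlrc4-T337S and 150.1, 130.3 and 138 RPKM in WT (log2 difference -0.64, SE 0.22, limma adjusted p = 0.161). Rpsa, also known as the laminin receptor, had 69.7, 158, 71.9 and 83.8 RPKM in Nlrc4-T337S and 161, 129.7 and 141 RPKM in WT. The RNA level says nothing of how much of the Rps6 protein was phosphorylated. The lowest-listed 40S gene was Rps15a, with 8.10, 16.6, 8.54 and 9.18 RPKM in Nlrc4-T337S and 15.98, 13.2 and 13.7 RPKM in WT, a gene with listed copies that are described further on.

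Proteins of the 60S subunit surround the centre that joins amino acids. The 43 genes of this subunit had a median log2 difference of -0.56, with 0 called and 35 at an unadjusted p under 0.05. Of all tested genes 22.2% were under 0.05 in either direction. Their sum was 3907, 7534, 4008 and 4540 RPKM in Nlrc4-T337S, against 7619, 6398 and 7284 RPKM in WT. Rpl41, the shortest of the ribosomal proteins, had the highest level of all 81 genes, with 331, 602, 330.0 and 365 RPKM in Nlrc4-T337S and 586, 444 and 589 RPKM in WT. Rpl10, which joins the subunit late in its assembly, had 288, 420.0, 274 and 300.3 RPKM in Nlrc4-T337S and 439, 367 and 412 RPKM in WT, and its difference was among the less negative (-0.36, SE 0.16). Rpl7a had 163, 274, 160.0 and 188 RPKM in Nlrc4-T337S and 296, 238 and 282 RPKM in WT, and Rpl18 had 158, 270.5, 137 and 184 RPKM in Nlrc4-T337S and 296, 231 and 296 RPKM in WT. As in the 40S subunit, the library that broke the separation was each time Nlrc4-T337S replicate 2.

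The 3 most negative of the 60S differences belonged to Rpl12, Rpl8 and Rpl13. Rpl12 (chromosome 2, 32817079 to 32820016, plus strand, mm9), which sits at the base of the stalk, had 74.5, 187, 70.1 and 92.95 RPKM in Nlrc4-T337S and 188, 161 and 169 RPKM in WT (log2 difference -0.81, SE 0.30, limma adjusted p = 0.178). Rpl8 (chromosome 15, 76734501 to 76736748, plus strand, mm9), which lies next to the catalytic centre, had 77.5, 169.5, 78.9 and 101 RPKM in Nlrc4-T337S and 191, 158 and 180.5 RPKM in WT (log2 difference -0.79, SE 0.25). Rpl8 had the smallest limma adjusted p of the 81 genes, 0.147, and still missed the threshold. Rpl13 had 100.1, 242, 98.8 and 128 RPKM in Nlrc4-T337S and 241, 207 and 236 RPKM in WT (log2 difference -0.78, SE 0.29). In Rpl8 Nlrc4-T337S replicate 2 lay within the WT range, and in Rpl13 it was the highest library by a small margin.

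Rpl5 and Rpl11 bind 5S ribosomal RNA and, when ribosome assembly stalls, the p53 inhibitor Mdm2. Rpl5 had 48.96, 98.3, 51.9 and 54.7 RPKM in Nlrc4-T337S and 101, 88.5 and 88.7 RPKM in WT, and Rpl11 had 105, 209, 109 and 134 RPKM in Nlrc4-T337S and 224, 194 and 209 RPKM in WT. Both showed the pattern of the other 60S genes, with log2 differences of -0.60 (SE 0.23) and -0.64 (SE 0.22). Of 8 tested p53 target genes limma called 0 and 0 had an unadjusted p under 0.05, which 22.2% of all tested genes had in either direction. Their median log2 difference was -0.12, against -0.15 for all genes, and 7 of the 8 were negative. The exception was Cdkn1a, an inhibitor of the cell cycle named after its values were seen, which averaged 99.1 ± 11.4 RPKM in Nlrc4-T337S (SD, n = 4) and 88.2 ± 4.18 RPKM in WT (SD, n = 3). Trp53, which encodes p53 itself, averaged 3.13 ± 0.947 RPKM in Nlrc4-T337S and 5.17 ± 0.335 RPKM in WT and did not pass (limma adjusted p = 0.124).

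The genes with the least negative differences outside the paralogs were Rpl30 and Rpl34, both near the bottom of the range of levels. Rpl30 had 7.10, 8.43, 5.57 and 8.28 RPKM in Nlrc4-T337S and 8.39, 8.29 and 8.999 RPKM in WT (log2 difference -0.22, 95% interval -0.55 to 0.10). Rpl34 had 10.5, 17.2, 9.18 and 11.7 RPKM in Nlrc4-T337S and 15.1, 13.97 and 14.6 RPKM in WT (log2 difference -0.29, 95% interval -0.71 to 0.13). In both the groups overlapped, and in Rpl34 Nlrc4-T337S replicate 2 was the highest library.

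The stalk recruits the elongation factors, with Rplp0 anchoring pairs of Rplp1 and Rplp2. Rplp1 had 217, 484, 206 and 261 RPKM in Nlrc4-T337S and 497, 388 and 460.0 RPKM in WT, and Rplp0 had 138, 299.5, 127 and 152 RPKM in Nlrc4-T337S and 291, 234.7 and 276 RPKM in WT. Their log2 differences were -0.70 (SE 0.28) and -0.66 (SE 0.27), with limma adjusted p = 0.192 and 0.204. Rplp2 had 36.8, 105, 69.01 and 78.3 RPKM in Nlrc4-T337S and 87.3, 92.1 and 110.5 RPKM in WT (log2 difference -0.50, SE 0.30, limma adjusted p = 0.349). Rplp2 differed from its partners in that Nlrc4-T337S replicate 1 was far below replicates 3 and 4, which lay nearer the WT libraries.

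The paralogs are near relatives of a ribosomal protein gene whose products can stand in for it or act elsewhere. All 4 were among the 9 genes whose correlation with the median of the others was under 0.95. Their summed RPKM was 185, 201, 173 and 176 in Nlrc4-T337S, against 214, 191 and 188 in WT. Their median log2 difference was -0.21. Rps27l (chromosome 9, 66793893 to 66797323, plus strand, mm9), a p53-inducible relative of Rps27, had 120.4, 123, 108 and 100.2 RPKM in Nlrc4-T337S and 124, 109.9 and 112 RPKM in WT, and the groups overlapped throughout. Rps27 had 49.7, 89.1, 57.8 and 64.3 RPKM in Nlrc4-T337S and 88.8, 77.3 and 83.8 RPKM in WT. Their log2 differences were -0.03 (95% interval -0.28 to 0.21) and -0.38 (95% interval -0.79 to 0.03).

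Rpl22l1 (chromosome 3, 28704358 to 28706274, plus strand, mm9), a relative of Rpl22 that Rpl22 is known to repress in mouse cells, had 38.7, 45.4, 42.9 and 42.4 RPKM in Nlrc4-T337S and 48.03, 49.6 and 44.3 RPKM in WT. Rpl22 itself had 11.9, 23.2, 13.2 and 14.4 RPKM in Nlrc4-T337S and 22.1, 20.3 and 20.7 RPKM in WT. In both groups the paralog was therefore the more abundant of the pair, and its ratio to Rpl22 was higher in Nlrc4-T337S replicates 1, 3 and 4 than in the other 4 libraries. Rpl7l1 (chromosome 17, 46910856 to 46919605, minus strand, mm9), a relative of Rpl7, had 11.7, 13.1, 10.6 and 12.7 RPKM in Nlrc4-T337S and 15.2, 14.1 and 15.4 RPKM in WT, while Rpl7 had 159, 262, 169.5 and 178 RPKM in Nlrc4-T337S and 273, 230.5 and 253 RPKM in WT. Rpl7l1 was the 1 gene of the 81 whose groups did not overlap, which 17.3% of all tested genes did in the lower direction and 1.97% in the higher. Its log2 difference was -0.30 (SE 0.10, limma adjusted p = 0.154). Rps4l (chromosome 6, 148303178 to 148304120, plus strand, mm9), a relative of the X-linked Rps4x, had 14.4, 18.8, 11.5 and 21.1 RPKM in Nlrc4-T337S and 26.02, 17.03 and 16.6 RPKM in WT, and its groups overlapped. Rps4x had 112, 220.3, 126 and 129 RPKM in Nlrc4-T337S and 229.8, 193 and 208 RPKM in WT.

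The paralogs were also set against the median of the 81 genes in the same library, a measure added after seeing the data. Their log2 differences were then 0.56 for Rps27l, 0.44 for Rpl22l1, 0.33 for Rps4l and 0.30 for Rpl7l1. On that scale the median of all tested genes was 0.45, so Rps27l lay above it and Rpl22l1, Rps4l and Rpl7l1 lay below it. These are descriptions: the subtracted median adds its own spread between libraries to every other gene, so limma p-values of that fit do not reflect the paralogs' own spread and are not given. The direction of the paralogs Rps27l and Rpl22l1 against WT turned under some scalings, whose values are given with the processing alternatives.

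**Figure D4:**
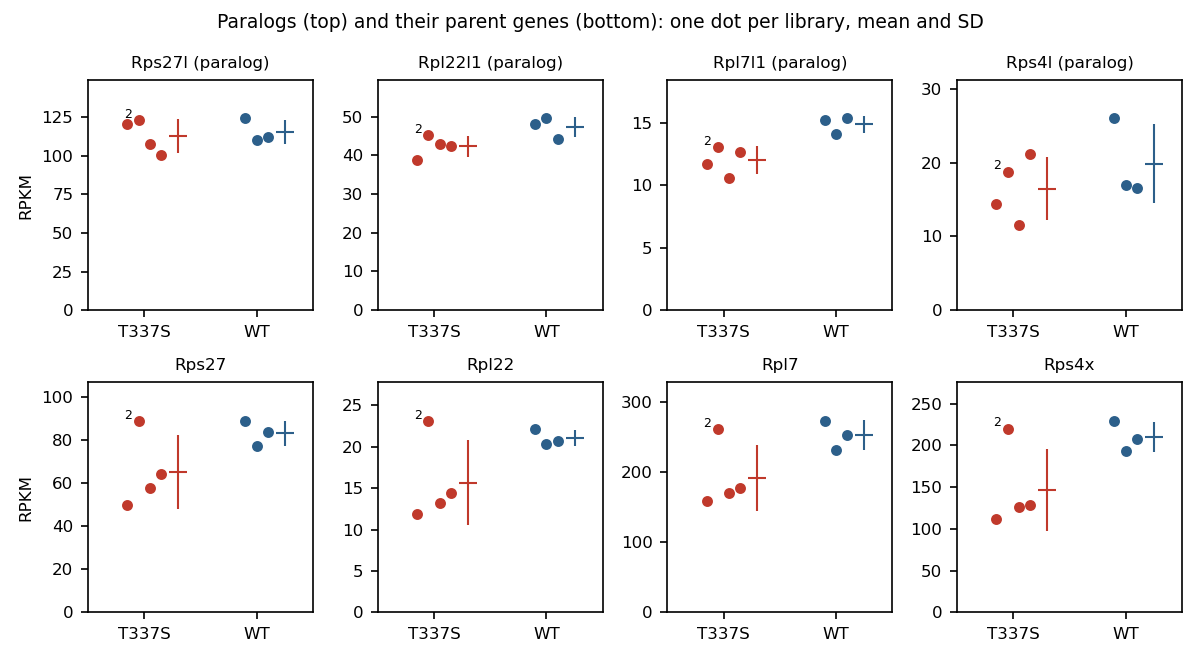
RPKM of the 4 paralogs (top row) and the genes they derive their names from (bottom row), 1 dot per library with mean and SD beside it, Nlrc4-T337S in red left of wild type in blue, and Nlrc4-T337S replicate 2 marked 2. Replicate 2 is far above the other 3 Nlrc4-T337S libraries in every gene of the bottom row, while in the top row it lies within their range or close to it.

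Copies elsewhere in the genome bear on every level given for a single gene. Of the 80 genes matched to the mm9 gene annotation (Rpl41 was not matched), the median gene had 96.0% of the 32-base stretches of its coding sequence found word for word at another place in mm9, and 31 genes had all of them. Counting only places that held at least 25% of a gene's stretches, the number reached 54 for Rpl21. The read length is not given in the sources used here, so 32 bases only serve to illustrate. Genes with under 50% copied included Rpl8 (11%), Rps3 (18%), Rps4l (29.8%) and Rpl4 (37.5%). Rps3, which helps grip the mRNA at the channel entry, had 66.1, 119, 59.4 and 70.9 RPKM in Nlrc4-T337S and 126, 98.5 and 114 RPKM in WT, and Rpl4 had 125, 229, 124 and 134 RPKM in Nlrc4-T337S and 234, 205 and 216 RPKM in WT. Both had Nlrc4-T337S replicates 1, 3 and 4 below every WT library and replicate 2 within the WT range. The log2 differences of Rpl8, Rps3 and Rpl4 were -0.79 (SE 0.25), -0.56 (SE 0.22) and -0.56 (SE 0.21), and the 31 fully copied genes had a median of -0.58.

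Some copies listed under their own names had higher levels than the gene they copy. Rpl34-ps1 had 101, 186, 102 and 115 RPKM in Nlrc4-T337S and 206, 154 and 179.8 RPKM in WT, a mean of 149 RPKM over the 7 libraries, against a mean of 13.2 RPKM for Rpl34. Rps27rt had 93.2, 168, 110.1 and 122 RPKM in Nlrc4-T337S and 167, 146 and 158 RPKM in WT. Both copies were low in Nlrc4-T337S replicates 1, 3 and 4, as their parents were. Summed with its copies, Rpl34 came to 111, 204, 111 and 126 RPKM in Nlrc4-T337S and 221, 168 and 194 RPKM in WT, and Rps15a to 18.2, 43.7, 22.6 and 23.1 RPKM in Nlrc4-T337S and 38.9, 34.5 and 33.3 RPKM in WT. With all 9 rows named as copies added, the total of the set was 7594, 15076, 7947 and 9047 RPKM in Nlrc4-T337S, against 15237, 12780 and 14513 RPKM in WT. The Nlrc4-T337S mean was 70.0% of the WT mean, against 69.8% without the copies.

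The start windows printed above can be set beside the differences. The 24 genes with a pyrimidine hexamer at the start had a median log2 difference of -0.56, and the 33 without had -0.59. The hexamers can miss a pyrimidine run, so the 33 cannot be taken as genes without a TOP. These 2 medians therefore do not compare genes with and without a TOP. Rpl7a, which has the longest run of those shown, differed by -0.50 (SE 0.19), and Rps6, with a run of 10, by -0.64 (SE 0.22). Other mRNAs known to carry a TOP, mostly translation factors, had smaller differences on the median. Of 21 tested 0 were called and 9 had an unadjusted p under 0.05, against 22.2% of all tested genes in either direction. All 21 were negative, as were 78% of all tested genes, and their median was -0.30. Hnrnpa1, an RNA-binding protein, averaged 13.6 ± 1.95 RPKM in Nlrc4-T337S (SD, n = 4) and 17.5 ± 0.911 RPKM in WT (SD, n = 3; limma adjusted p = 0.154). Eif3l, an initiation factor subunit, averaged 29.8 ± 4.42 RPKM in Nlrc4-T337S and 38.1 ± 2.35 RPKM in WT (limma adjusted p = 0.159). The difference between these medians was not tested.

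Among proteins bound to the ribosome but named otherwise, 0 of 5 were called, and their median was -0.37. Rack1, a scaffold on the head of the 40S subunit, had 93.1, 206, 88.8 and 105 RPKM in Nlrc4-T337S and 212, 169 and 188 RPKM in WT (log2 difference -0.71, SE 0.27, limma adjusted p = 0.185). Serbp1, a clamp of idle ribosomes, averaged 10.4 ± 1.72 RPKM in Nlrc4-T337S and 13.5 ± 0.518 RPKM in WT (SD, n = 4 and 3; limma adjusted p = 0.161). The Rack1 values followed the ribosomal protein genes library by library. At an unadjusted p under 0.05 there were 2 of the 5, against 22.2% of all tested genes in either direction.

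Ribosome assembly factors and the hosts of small nucleolar RNAs had the medians closest to that of the ribosomal proteins among the translation lists. This holds on the log2(RPKM + 0.5) scale, where the added 0.5 shrinks the differences of genes at low RPKM. Some assembly factors were that low, such as Wdr12, with means of 0.427 RPKM in Nlrc4-T337S and 0.745 RPKM in WT. Of 42 assembly factors tested 0 were called and 32 had an unadjusted p under 0.05, against 22.2% of all tested genes in either direction. All 42 were negative, as were 78% of all tested genes, and the median was -0.51. Nolc1, a nucleolar chaperone of small nucleolar ribonucleoproteins, averaged 1.06 ± 0.463 RPKM in Nlrc4-T337S (SD, n = 4) and 2.49 ± 0.283 RPKM in WT (SD, n = 3; log2 difference -0.98, SE 0.21, limma adjusted p = 0.0733). Lsg1, a GTPase of late 60S assembly, averaged 2.15 ± 0.322 RPKM in Nlrc4-T337S and 3.198 ± 0.0221 RPKM in WT (limma adjusted p = 0.0999). Of 6 tested TOP genes that host small nucleolar RNAs, Snhg12 was called lower and had 1.40, 1.74, 1.27 and 1.24 RPKM in Nlrc4-T337S, against 2.79, 3.12 and 2.40 RPKM in WT (log2 difference -0.78, SE 0.13, limma adjusted p = 0.0392). It was named because it was the only call of that list, whose median was -0.54 with 4 at an unadjusted p under 0.05. Its mean of 1.99 RPKM left it out of the fit with a filter at 2 RPKM. The Snhg12 call was lost without a filter on low values, under quantile normalization, without Nlrc4-T337S replicates 1 and 3 together and on leaving out any single library except Nlrc4-T337S replicate 2.

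The other translation lists differed less. Of 26 tested initiation factors and regulators 0 were called, 9 (34.6%) had an unadjusted p under 0.05 in either direction, against 22.2% of all tested genes, and 22 were negative, a share near the 78% of all tested genes. Their median was -0.24. Eif1a, which helps the 40S subunit scan for the start codon, stood on the other side, with 23.9, 20.4, 22.9 and 21.6 RPKM in Nlrc4-T337S and 16.0, 15.6 and 13.1 RPKM in WT (log2 difference 0.56, SE 0.10, limma adjusted p = 0.0522). Here the groups did not overlap, and Nlrc4-T337S replicate 2 lay with its own genotype. Eif2b5, a subunit of the exchange factor for eIF2, averaged 7.77 ± 0.669 RPKM in Nlrc4-T337S and 10.1 ± 0.414 RPKM in WT (SD, n = 4 and 3; limma adjusted p = 0.116). Of 11 tested genes of RNA polymerase I and Myc 0 were called and 6 had an unadjusted p under 0.05, with a median of -0.28. Ubtf, the polymerase I activator, averaged 7.53 ± 0.994 RPKM in Nlrc4-T337S and 9.80 ± 0.626 RPKM in WT (limma adjusted p = 0.148), and Polr1b, a polymerase subunit, averaged 0.425 ± 0.145 RPKM in Nlrc4-T337S and 0.764 ± 0.131 RPKM in WT (limma adjusted p = 0.154). Of 77 mitochondrial ribosomal protein genes 0 were called, 27 had an unadjusted p under 0.05, 75 were negative and the median was -0.26. Their summed RPKM was 1155, 1470, 1183 and 1262 in Nlrc4-T337S, against 1553, 1343 and 1500 in WT, with Nlrc4-T337S replicate 2 again within the WT range.

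Markers of several cell types moved with the same libraries. The level of a marker list is the mean over its tested genes of the log2 deviation from each gene's own mean. A sum covers every gene of the list with a row in the gene table, tested or not. That makes 7 genes for stem cells, 9 for stroma, 5 for erythrocytes and 8 for acinar cells. Over all tested genes limma called 0.592% lower and 0.3% higher. Proliferation markers, all 13 of them tested and 0 called, stood at -0.69, 0.30, -0.40 and -0.25 in Nlrc4-T337S replicates 1 to 4, against 0.32, 0.31 and 0.40 in WT. That list mean was nearly the pattern of the ribosomal protein genes, but not every marker followed it. Of the 13, 7 had an unadjusted p under 0.05, against 22.2% of all tested genes in either direction. Pcna, Birc5 and Mcm6 had log2 differences of only -0.04, -0.04 and -0.13. Rrm2 had 1.48, 2.84, 5.10 and 5.12 RPKM in Nlrc4-T337S, against 2.515, 3.25 and 16.25 RPKM in WT. Intestinal stem cell markers, of which 1 of 5 tested was called lower, stood at -1.004, 0.14, -0.75 and -0.12 in Nlrc4-T337S, against 0.68, 0.48 and 0.58 in WT. Their summed RPKM was 6.54 to 25.5 in Nlrc4-T337S and 30.2 to 36.5 in WT. Paneth cell markers, with 2 of 7 called lower, summed to 163, 747, 157 and 309.9 RPKM in Nlrc4-T337S and 1729, 1174 and 1661 RPKM in WT. In all these lists Nlrc4-T337S replicate 2 was the highest library of its genotype.

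Stroma markers, with 5 of 7 called lower, summed to 2.83 to 8.40 RPKM in Nlrc4-T337S and 12.8 to 29.2 RPKM in WT. For this and the following lists, the shares called over all tested genes were 0.592% lower and 0.3% higher. Myeloid markers (0 of 7 called) had levels from -0.86 to 0.31 in Nlrc4-T337S and from 0.09 to 0.75 in WT, and B cell and plasma cell markers (0 of 6 called) from -1.07 to 0.69 in Nlrc4-T337S and from -0.01 to 1.48 in WT, each highest among the Nlrc4-T337S libraries in replicate 2. Erythrocyte markers (3 of 4 called lower) and pancreatic acinar markers (2 of 3 called lower) summed to less RPKM in each of the 4 Nlrc4-T337S libraries than in the WT libraries. T cell and NK cell markers, with 1 of 7 called higher, summed to 379.8 to 493 RPKM in Nlrc4-T337S and 301 to 346 RPKM in WT. Their levels overlapped, from -0.10 to 0.34 in Nlrc4-T337S and from -0.28 to 0.002 in WT. Enterocyte markers, 0 of 12 called, had levels of 0.06, 0.09, -0.18 and 0.04 for Nlrc4-T337S replicates 1 to 4 and 0.11, 0.01 and -0.13 for the WT libraries. Goblet cell, enteroendocrine and tuft cell markers had 0 of 5, 0 of 6 and 0 of 3 called. The part of these cell types in the levels of the ribosomal protein genes was not tested.

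**Figure D5:**
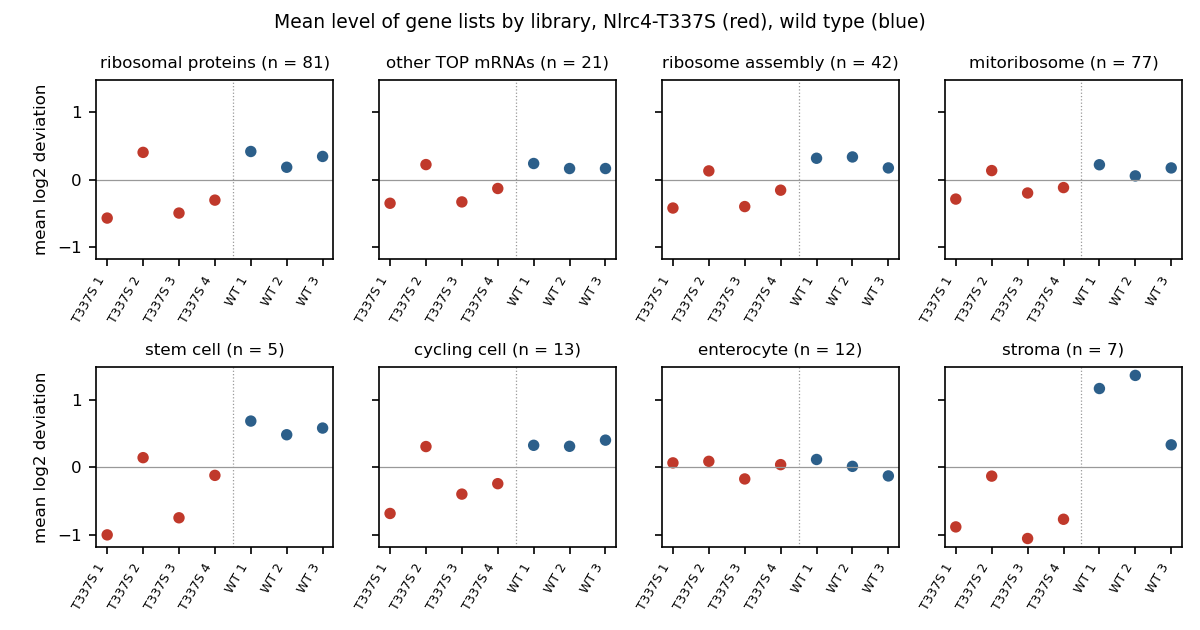
Mean log2 deviation of each list from its genes' own means, 1 dot per library, Nlrc4-T337S in red left of wild type in blue, for the 81 ribosomal proteins, 3 related lists and 4 cell type marker lists with the number of genes tested. Nlrc4-T337S replicate 2 sits with the WT libraries for ribosomal proteins (0.41, against 0.42, 0.19 and 0.35 in WT). It lies just below them for cycling cells (0.304, against 0.323, 0.308 and 0.399 in WT) and further below them for stem cells and stroma.

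The genes outside the set whose levels most resembled the set's library median were found among 3789 other genes with a mean of at least 10 RPKM, by Pearson correlation of log2 values over the 7 libraries. They were Eef1b2 (0.998), Gm15772 (0.997), Nfu1 (0.996), Rack1 (0.995), Gm12191 (0.994), Mif (0.993), Eif3i (0.993), Snrpd2 (0.991), Rpl34-ps1 (0.991) and Cdk4 (0.988). The median correlation of the 3789 genes was 0.384. Eef1b2, a translation elongation factor subunit, had 37.1, 66.1, 37.9 and 41.6 RPKM in Nlrc4-T337S and 69.0, 58.0 and 64.5 RPKM in WT. Cdk4, a cell cycle kinase, had 6.68, 15.1, 6.82 and 8.75 RPKM in Nlrc4-T337S and 17.5, 13.8 and 13.8 RPKM in WT. Both genes were chosen for this correlation, which fixes that they show the same split of the Nlrc4-T337S libraries into replicate 2 and the rest.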

How the data were processed

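Per the labels' protocols, total RNA was extracted with TRIzol and sequenced from unstranded Illumina TruSeq libraries. Per the file headers, reads were mapped to mm9 with TopHat 2.1.0 and the authors computed RPKM in Partek 6.16.0606. The authors deposited read counts and mapped fractions for each library, and the RPKM of 22987 genes. How multiply mapping reads were assigned is not given in the sources used here.

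Values were tested as log2(RPKM + 0.5) over 10987 genes with a mean of at least 0.5 RPKM, with limma 3.58.1 in R 4.3.3 (mean-variance trend, two-sided, Benjamini-Hochberg at 0.05), Nlrc4-T337S minus WT, and the steps were tested on simulated data. Replicates were numbered in accession order, which pairs no samples. RPKM is relative to the RNA sequenced, so it gives no amount per cell. Gene positions and copies came from mm9 and its GENCODE vM1 annotation, and start windows from RefSeq.

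The genes, lists and tests were chosen with earlier results of these data known. Genes were named by rule: the 8 highest and 4 lowest levels, the 5 most and 5 least negative differences, paralogs with their parents, the stalk, Rpsa, Rps6, Rps19, Rpl5 and Rpl11, and from each translation list the genes called or the 2 with the smallest p. Rps3 and Rpl4 were added for their few copies. The values of 1 gene of the set are not reported here singly. Alternatives were other pseudocounts, filters, scalings, variance models, library weights, a threshold of 0.10, a member minimum of 10 RPKM, a sample-order term and leaving out libraries. Subtracting the library median over the 81 genes was added after seeing the data.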

Additional observations from a re-analysis of the deposited data

Results flagged for a closer look

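For 7 of the 37 genes and sums examined, 1 library of the 4 Nlrc4-T337S libraries lay far from the other 3, with a gap to its nearest neighbour, as a fraction of the whole range, above the 95% critical value of Dixon's test for 4 samples. It was replicate 2 each time, and each time the highest. Its levels were 602 RPKM for Rpl41, 336.7 RPKM for Rps14, 299.5 RPKM for Rplp0, 220.3 RPKM for Rps4x, 158 RPKM for Rpsa, 98.3 RPKM for Rpl5 and 16.6 RPKM for Rps15a. Chance flags about 1 in 20 groups, and these genes share their libraries, so the 7 are not separate events.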

How the results depend on the processing

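No paired analysis was possible because the labels give no replicate numbers shared between genotypes. With other pseudocounts, filters, scalings, variance models or weights, or with a sample-order term, 0 of the 81 genes were called. With array weights 48 had an adjusted p under 0.10 by limma, and otherwise 0 did at a threshold of 0.10 with all libraries in. Leaving out 1 library in turn, the number called lower ran from 0 to 75 for all 81 genes, 0 to 31 for the 40S, 0 to 42 for the 60S and 0 to 2 for the stalk, with the high end always without Nlrc4-T337S replicate 2. It ran from 0 to 10 of 21 other TOP mRNAs, 0 to 4 of 5 ribosome-bound proteins and 0 to 5 of 26 initiation factors. For assembly factors it ran from 0 to 27 of 42, and for RNA polymerase I and Myc from 0 to 1 of 11. For small nucleolar RNA hosts it ran from 0 to 6 of 6, and for mitochondrial ribosomal proteins from 0 to 24 of 77. Without Nlrc4-T337S replicate 2, where these high ends lie, 11.6% of all tested genes were called lower. The median of the 81 genes ran from -0.78 to -0.46 and the log2 ratio of their summed means from -0.79 to -0.41.

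The median of all genes, -0.15 as deposited, became 0.01 with median-of-ratios scaling and 0.03 with quantile normalization. Relative to it the 81 genes stood at -0.41 and -0.52, against -0.43 as deposited. Over all genes 33 were called higher and 65 lower as deposited, 71 and 65 with ratio-based scaling, and 74 and 59 with quantile normalization.

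With median-of-ratios scaling the median was -0.0396 for paralogs, -0.0633 for initiation factors, -0.11 for RNA polymerase I and Myc and -0.0892 for mitochondrial ribosomal proteins. With quantile normalization it was -0.0853 for initiation factors and -0.27 for assembly factors. Without Nlrc4-T337S replicates 1 and 3 it was -0.0788 for paralogs, -0.11 for initiation factors, -0.30 for assembly factors and -0.24 for small nucleolar RNA hosts. Array weights called 3 of 42 assembly factors and 1 of 77 mitochondrial ribosomal proteins lower, where 2.61% of all tested genes were called lower. A threshold of 0.10 called 2 and 1 of them lower, where 2.84% of all tested genes passed it in either direction. Small nucleolar RNA hosts had 0 called without a filter, at a mean of at least 2 RPKM (which leaves out Snhg12), under quantile normalization and without Nlrc4-T337S replicates 1 and 3.

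Rps27l turned positive at 0.0201 with equal sums, 0.14 with median-of-ratios scaling, 0.0062 with equal sums of the other genes and 0.0362 with quantile normalization, and stood at 0.0197 without WT replicate 1 and 0.0207 without Nlrc4-T337S replicate 4, while without single libraries its lowest value was -0.0787. Rpl22l1 turned to 0.0175 with median-of-ratios scaling, and Rps4l to 0.0333 without Nlrc4-T337S replicates 1 and 3. The cause was not tested. Over the 32 named genes and all alternatives, 8 of 640 values changed sign and 26 passed the threshold in the same direction. All 26 came from the fit without Nlrc4-T337S replicate 2, where 11.6% of all tested genes were called lower. The other values kept direction and call.

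Levels of the 81 genes lie far above the worth of 1 read, so depth did not limit their detection. The part of depth in their differences was not tested. Nlrc4-T337S replicate 2 sets the number of calls, 0 with it and 75 without it, and reads shared among copies limit every level of a single gene.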
